A study of Homo sapiens with 4 samples.

Results

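The MYOD and H3K27ac peaks of control RD cells were set against each other, to describe where MYOD sat relative to acetylated chromatin in the tumor cells before any manipulation of SKP2. Members were all deposited peaks of the shSCR arm on chromosomes 1 to 22, X and Y, which gave 5814 MYOD peaks and 25356 H3K27ac peaks, 31170 of the 78084 regions in the series. A MYOD peak was placed in the class with H3K27ac when it shared at least 1 bp with an H3K27ac peak, and in the class alone otherwise, and H3K27ac peaks were divided in the same way by MYOD. By that rule 2259 MYOD peaks (38.9%, 95% interval 37.6 to 40.1) lay with H3K27ac and 3555 lay alone, while 2377 H3K27ac peaks (9.37%) lay with MYOD and 22979 lay alone.

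MYOD is the basic helix-loop-helix factor that commits cells to skeletal muscle. It pairs with E proteins and binds E-boxes, short sites read as CANNTG, most readily those with GC or GG in the middle. Acetylation of histone H3 at lysine 27 is a mark of nucleosomes at active promoters and enhancers, and such nucleosomes lie on either side of a bound factor. Rhabdomyosarcoma cells keep expressing MYOD but do not complete the muscle program.

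RD is an established human cell line from a rhabdomyosarcoma without a PAX fusion gene, the fusion-negative type (FN-RMS). The series holds MYOD and H3K27ac ChIP-seq from RD cells infected with a lentiviral vector for an shRNA against SKP2 (shSKP2) or for a non-targeting shRNA (shSCR), with 1 library per antibody and arm. The 2 shSCR libraries used here came from puromycin-selected cells that carry the pLKO.1 vector, and their chromatin was fixed with formaldehyde, cut with micrococcal nuclease and mixed with Drosophila chromatin before immunoprecipitation. A single cell line was used, so nothing here bears on other tumors. With 1 library each, no comparison has a replicate check, and all intervals are 95% intervals (Wilson for shares, Newcombe for differences of shares) that cover counting error only and take each peak as independent, although neighboring peaks share a locus.

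The deposited fold of a peak, the enrichment over local background at its summit, ran from 2.70 to 24.9 for MYOD and from 1.87 to 21.5 for H3K27ac. MYOD peaks were narrow, with a median width of 271 bp and 1.79 Mb covered in all, and H3K27ac peaks had a median width of 363 bp and covered 11.6 Mb. The lists give no sequencing depth. The summit pileup, recovered from fold and p, had a median of 21 fragments for MYOD and 25 for H3K27ac, so a site without a peak is a site that did not pass the caller at this depth, not a site shown to be empty.

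Sequences under some of the strongest peaks of each class are shown as examples. The windows of 201 bases centered on 8 MYOD summits are given here from the hg38 plus strand, 5′ to 3′, with capitals on every CAGCTG and on every CAGGTG, which reads CACCTG when it lies on the minus strand. MAMSTR, CHRND and DMPK are shown for peaks with H3K27ac at promoters, RTN2 and CACNA1S for peaks with H3K27ac away from promoters, RDH8 and IYD for peaks alone with no H3K27ac nearby, and TMEM120A for a peak alone that stopped 1 bp short of an H3K27ac peak.
MAMSTR promoter, chr19:48719888-48720088: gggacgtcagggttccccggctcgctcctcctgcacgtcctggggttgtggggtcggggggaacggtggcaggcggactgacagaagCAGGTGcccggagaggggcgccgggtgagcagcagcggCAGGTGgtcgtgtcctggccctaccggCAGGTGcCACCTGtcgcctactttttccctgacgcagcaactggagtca
CHRND promoter, chr2:232525785-232525985: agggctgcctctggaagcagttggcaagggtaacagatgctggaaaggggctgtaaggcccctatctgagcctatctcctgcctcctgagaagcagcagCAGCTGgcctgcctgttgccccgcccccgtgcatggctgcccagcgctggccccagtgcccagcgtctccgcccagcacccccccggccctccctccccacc
DMPK intron 1, chr19:45781620-45781820: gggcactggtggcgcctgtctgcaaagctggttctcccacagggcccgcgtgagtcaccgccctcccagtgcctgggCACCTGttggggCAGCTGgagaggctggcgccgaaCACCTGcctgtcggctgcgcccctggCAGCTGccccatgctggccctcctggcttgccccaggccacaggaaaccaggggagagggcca
RTN2 intron 5, chr19:45492774-45492974: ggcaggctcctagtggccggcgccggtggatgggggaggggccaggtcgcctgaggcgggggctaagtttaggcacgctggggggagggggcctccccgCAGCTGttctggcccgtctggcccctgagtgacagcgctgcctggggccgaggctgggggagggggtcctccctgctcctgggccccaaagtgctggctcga
CACNA1S intron 2, chr1:201096018-201096218: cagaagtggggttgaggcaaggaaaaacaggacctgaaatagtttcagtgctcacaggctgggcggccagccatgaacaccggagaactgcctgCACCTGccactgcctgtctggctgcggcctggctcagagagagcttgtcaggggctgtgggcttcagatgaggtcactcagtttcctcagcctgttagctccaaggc
RDH8 intergenic, chr19:10027694-10027894: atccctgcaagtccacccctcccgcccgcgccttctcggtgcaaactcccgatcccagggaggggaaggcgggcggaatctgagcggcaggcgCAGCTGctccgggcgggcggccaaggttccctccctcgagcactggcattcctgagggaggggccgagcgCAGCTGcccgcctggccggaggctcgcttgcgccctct
IYD intergenic, chr6:150299940-150300140: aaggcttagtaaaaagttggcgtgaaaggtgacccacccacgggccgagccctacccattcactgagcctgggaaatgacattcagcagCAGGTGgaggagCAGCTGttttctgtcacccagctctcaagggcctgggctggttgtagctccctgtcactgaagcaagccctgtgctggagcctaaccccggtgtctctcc
TMEM120A, inside POR intron 2, chr7:75966153-75966353: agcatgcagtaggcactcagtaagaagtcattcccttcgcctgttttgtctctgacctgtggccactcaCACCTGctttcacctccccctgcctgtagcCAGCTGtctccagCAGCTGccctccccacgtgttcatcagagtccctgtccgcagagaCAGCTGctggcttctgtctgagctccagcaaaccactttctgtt
All 8 windows hold at least 1 of these E-boxes, and 6 of them hold CAGCTG. They are a selection, and the windows of GSTA4 and SARAF, also among the 10 strongest of their classes, held neither E-box. The MAMSTR window holds 4 copies of the GG-centered form and no CAGCTG, and the CACNA1S window holds a single CACCTG centered 3 bp from the summit. In the RTN2, CHRND, RDH8, IYD and TMEM120A windows a CAGCTG lay within 4 bp of the summit.

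The overlap was far above that of shifted positions. When MYOD peaks were moved by 20 kb downstream or upstream, 1.94% and 2.18% of them met an H3K27ac peak, against 38.9% in place. Of the 2259 MYOD peaks with H3K27ac, 2119 touched 1 H3K27ac peak, 138 touched 2 and 2 touched 3 or more. The class alone was not uniform. In 1262 of its peaks (21.7% of all MYOD peaks) an H3K27ac peak ended within 1 kb, at a median gap of 0.101 kb, and these are called adjacent. In the other 2293 (39.4%) the nearest H3K27ac edge lay farther than 1 kb, at a median of 23.7 kb, and these are called separate. In all, 60.6% of MYOD peaks had H3K27ac overlapping or within 1 kb, against 5.85% of the moved positions. H3K27ac stood on both sides within 1 kb in 332 of the 1262 adjacent peaks (26.3%).

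**Figure D1:**
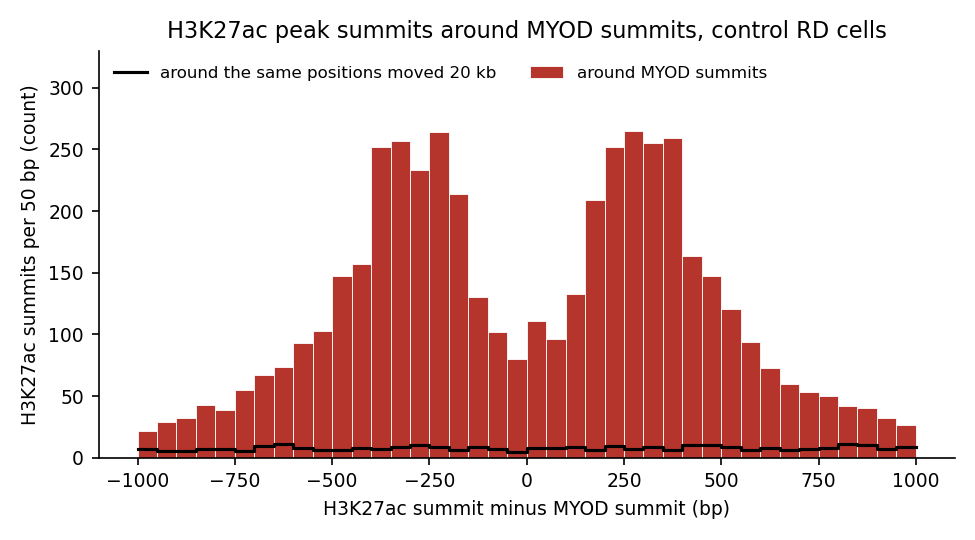
Distance in bp from each MYOD summit to the H3K27ac summits around it (horizontal axis) against the number of H3K27ac summits per 50 bp (vertical axis), all 5814 MYOD peaks of control RD cells. Bars are the observed counts and the line is the mean of the positions moved 20 kb each way. H3K27ac summits stand in 2 humps beside MYOD, with a dip at the MYOD summit that still lies above the line.

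H3K27ac summits stood beside MYOD summits rather than on them, as the plot of summit spacing shows. Between 150 and 400 bp from a MYOD summit H3K27ac summits were 28.8 to 39.4 times as frequent as around moved positions, and closer than 150 bp they were 13.1 to 14.6 times as frequent. Of the 3446 MYOD summits with an H3K27ac summit within 1 kb, 2217 (64.3%, 62.7 to 65.9) had the nearest at 150 to 450 bp, and the median was 270.0 bp. The spacing was shorter at promoters (median 216 bp) than elsewhere (284 bp). Even among the overlapping peaks, the MYOD summit itself fell inside the H3K27ac peak in 950 of 2259 (42.1%, 40 to 44.1).

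MYOD peaks with H3K27ac lay at promoters more often than those alone. A promoter was taken as a summit within 2 kb of the canonical start of a protein-coding gene. Of MYOD peaks with H3K27ac 29.5% lay at promoters, against 12.8% of those alone, a difference of 16.7 points (14.6 to 18.9). Adjacent peaks stood at 15.9% and separate peaks at 11.1%. The median distance to a protein-coding start was 19.4 kb with H3K27ac and 39.6 kb alone, and 18.6% and 26.5% of the summits lay farther than 100 kb from any such start. Read the other way, 59.4% of promoter MYOD peaks overlapped H3K27ac, 33.2% of those in gene bodies and 34.7% of intergenic ones. From the H3K27ac side the order was opposite, since 28.7% of H3K27ac peaks with MYOD were at promoters against 38.4% of H3K27ac peaks alone, a difference of -9.71 points (-11.6 to -7.76). This last sign depends on how overlap is counted, and was 8.19 points when the MYOD summit had to lie inside the H3K27ac peak. Among chromosomes the share of MYOD peaks with H3K27ac ran from 24.4% on chromosome 13 to 43.4% on chromosome 19.

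**Figure D2:**
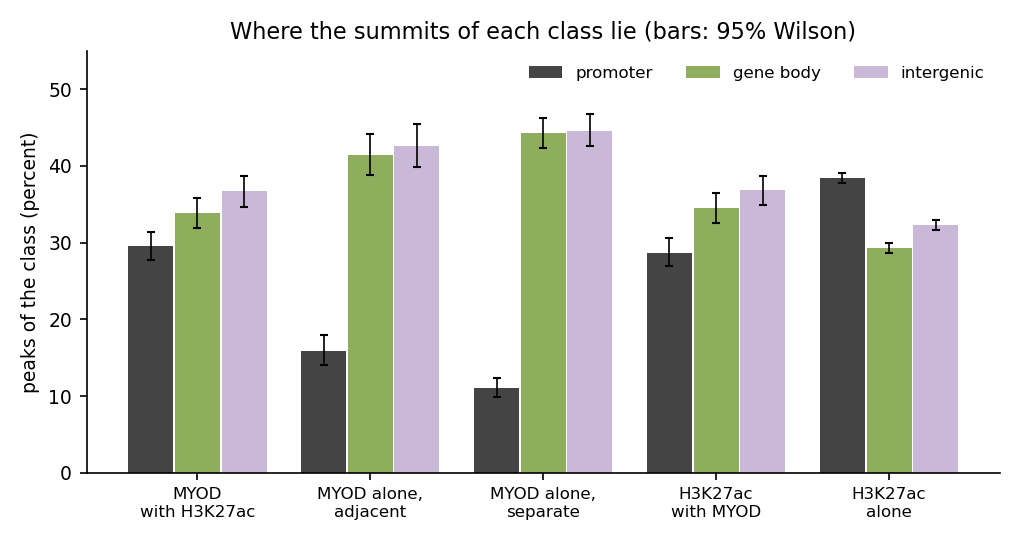
Share of peak summits (percent of the class) at promoters, in gene bodies and in intergenic DNA, for the 3 MYOD and 2 H3K27ac classes, with 95% Wilson intervals. MYOD with H3K27ac has the highest promoter share of the MYOD classes (29.5%), and H3K27ac alone the highest of all (38.4%).

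Peak strength and acetylation were related in a way that differed by position. Over all positions the median MYOD fold was 5.85 with H3K27ac and 5.65 alone, with quartiles of 4.43 to 8.21 and 4.43 to 7.42, so the distributions overlapped widely. The order turned under stricter rules of overlap, with a difference of medians of -0.236 for a reciprocal overlap of 50% and -1.11 when the MYOD summit had to lie inside the H3K27ac peak. Adjacent peaks had a higher median (6.26) than separate peaks (5.36). Outside promoters the medians were 6.36 with H3K27ac and 5.71 alone. At promoters they were 4.88 and 5.24, the opposite order. The MYOD peaks with H3K27ac were also wider (median 327 bp against 248 bp), and a wider peak meets a 1 bp overlap more easily.

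**Figure D3:**
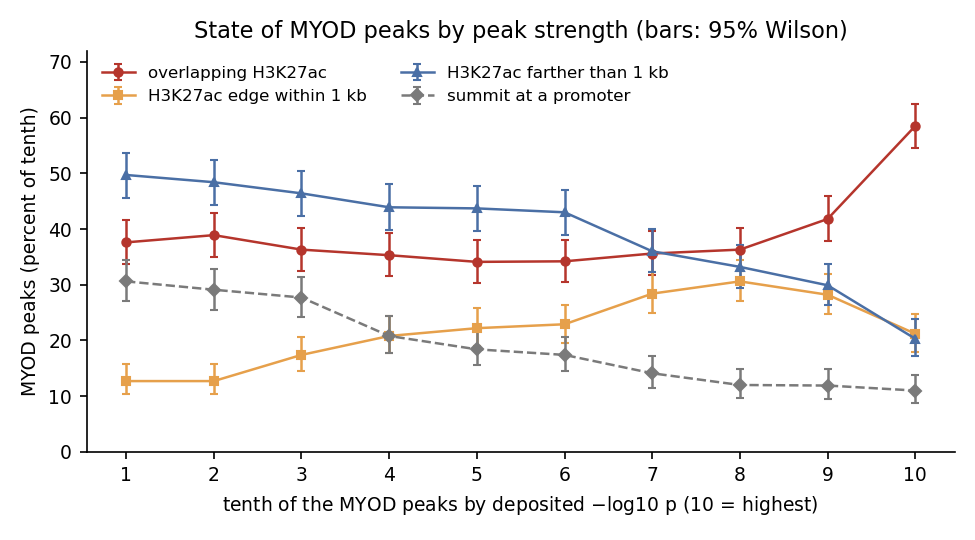
MYOD peaks in 10 equal groups by deposited −log10 p (horizontal axis, 10 the highest) against the percent of each group that overlapped H3K27ac, had its edge within 1 kb, had it farther away, or had the summit at a promoter. Bars are 95% Wilson intervals. The separate share falls from 49.7% to 20.3%, and the overlapping share is highest in the top group (58.5%).

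When the MYOD peaks were divided into 10 equal groups by −log10 p, the separate share fell from 49.7% in the weakest group to 20.3% in the strongest. The overlapping share stayed between 34.1% and 41.8% in the lower 9 groups and reached 58.5% (54.5 to 62.5) in the strongest. The adjacent share rose from 12.7% to 30.6% in group 8 and was 21.2% in group 10, and the promoter share fell from 30.6% to 11%. Outside promoters, with 5 equal groups, the overlapping share went from 26.4% to 49.6% and the separate share from 60.8% to 23.8%. At promoters the overlapping share showed no such order, with 66.7% in the weakest group and 60.3% in the strongest. H3K27ac peaks behaved likewise from their side, with MYOD in 3.63% of the weakest and 19.9% of the strongest of 10 groups by −log10 p. Width moved with this, since 4.73% of the narrowest and 20% of the widest group held MYOD, and its part in the rise was not tested.

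Overlapping peaks fell into 2 kinds by where the MYOD summit sat, a division made after the data were seen. The 950 peaks with the MYOD summit inside the H3K27ac peak lay at promoters in 45.1%, against 18.3% of the 1309 with the summit outside it, a difference of 26.8 points (23 to 30.5). They were also weaker, with a median MYOD fold of 4.80 against 6.73, and lay in wider H3K27ac peaks (median 692 bp against 422 bp), a difference that the division favors because a wider peak holds a summit more easily. CAGCTG or CAGGTG stood within 100 bp of the summit in 71.7% of them and in 93.1% of the others. The difference in CAGCTG held in both positions and was -18.2 points (-23.2 to -13.3) outside promoters and -20.6 points (-28.0 to -12.8) at promoters. When the overlapping MYOD peaks were ordered by the strength of their H3K27ac peak, the share with either E-box went from 87.2% in the weakest of 5 groups to 76.9% in the strongest, and the share at promoters from 22.1% to 46.1%.

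Under the 1 bp rule the E-box content of the classes was close for the GC-centered site and apart for the GG-centered one. Motifs were searched on both strands within 100 bp of each MYOD summit, beside windows of the same length 2 kb away and beside windows around all protein-coding starts. CAGCTG stood in 64.0% of windows with H3K27ac and 64.6% of those alone, a difference of -0.546 points (-3.08 to 1.97), against 9.44% of windows 2 kb away and 14% of all starts. Split by position the difference had 2 signs, 4.40 points (1.57 to 7.18) outside promoters and -8.97 points (-14.8 to -3.03) at promoters. Other rules of overlap also moved it, to -12.8 points with a reciprocal overlap of 50%, -16.0 points with the MYOD summit inside the H3K27ac peak and 2.91 points (0.406 to 5.43) with H3K27ac within 500 bp. CAGGTG, which is CACCTG on the other strand, stood in 35.1% with H3K27ac and 45.9% alone, a difference of -10.8 points (-13.3 to -8.18), against 20.6% of windows 2 kb away and 14.5% of all starts. The separate peaks held it most often (48.2%). At least 1 of these E-boxes was found in 86.7% of all MYOD windows, 27.8% of windows 2 kb away and 26.5% of all starts. CATCTG, which is CAGATG on the other strand, stood in 15.7% with H3K27ac, 21.2% alone and 13.7% of windows 2 kb away and 6.65% of all starts. Each form is its own word of 6 bases, so no copy is counted under 2 of them.

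**Figure D4:**
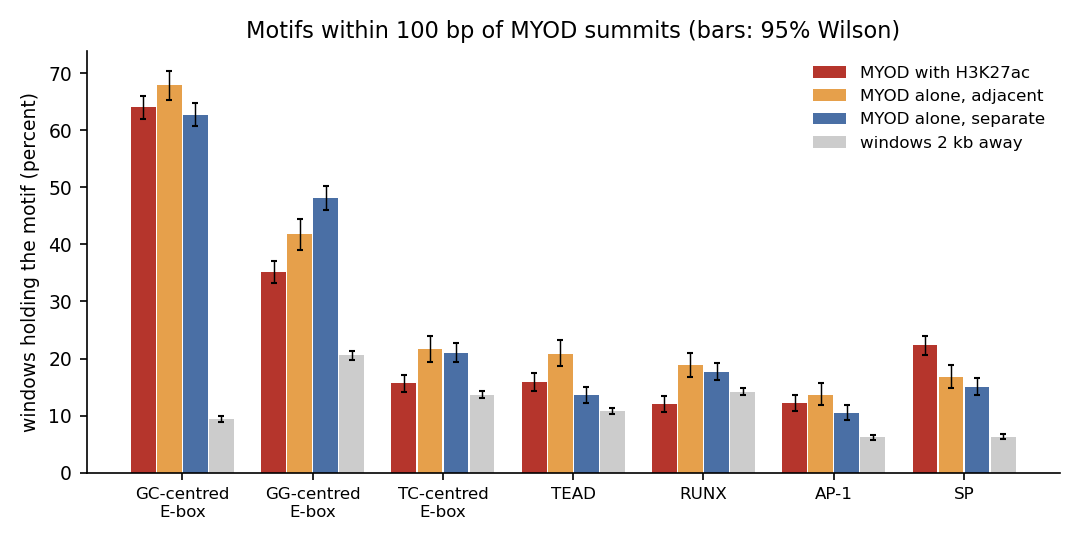
Percent of 201-base windows that hold each motif, around MYOD summits of the 3 classes and 2 kb away from MYOD summits (all positions), with 95% Wilson intervals. The GC-centered E-box (CAGCTG) stands at 62.7% to 67.9% in the MYOD classes against 9.44% in the background windows, and the GG-centered form (CAGGTG) is highest in separate peaks (48.2%).

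Windows with 3 or more copies of CAGCTG were more frequent away from acetylation. They made up 6.19% of separate, 3.65% of adjacent and 2.70% of overlapping peaks, against 0.0432% of windows 2 kb away. Windows with exactly 2 copies were alike, at 15.4%, 16.6% and 15.3%. CAGCTG sat close to the summit, with 54.4% of 5216 copies centered within 20 bp of it (22.2% in windows 2 kb away). The base that follows CAGCTG, read on both strands, was C in 40.8%, T in 31.9%, G in 19.2% and A in 8.06%, against 28.4%, 21.7%, 30.8% and 19% in windows 2 kb away, and these shares were alike with H3K27ac (42.8%, 31.6%, 18.1% and 7.45%) and alone (39.6%, 32.2%, 19.9% and 8.42%). Strength moved with the E-box too, since CAGCTG or CAGGTG stood in 54.2% of the weakest and 96% of the strongest of 5 groups at promoters, and in 69.5% and 96.6% elsewhere.

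Sites of other factors also differed between classes. GGAATG, the core of sites for TEAD factors of the Hippo pathway, stood in 20.8% of adjacent and 13.7% of separate peaks, a difference of 7.19 points (4.59 to 9.88), in 15.9% of overlapping peaks, 10.8% of windows 2 kb away and 6.46% of all starts. TGTGGT, the core of RUNX sites, stood in 12% with H3K27ac and 18.1% alone (-6.06 points, -7.88 to -4.20), beside 14.2% of windows 2 kb away and 7.01% of all starts. TGANTCA, the site of AP-1, stood in 12.2% and 11.6%, a difference of 0.528 points (-1.16 to 2.27), and in 6.19% of windows 2 kb away and 3.07% of all starts. Outside promoters the AP-1 difference was 2.71 points (0.630 to 4.88). GGGCGG, the GC box of SP factors, stood in 22.3% and 15.6%, in 6.33% of windows 2 kb away and in 53.7% of all starts. At promoters alone it did not differ in that direction (-5.79 points, -11.7 to 0.156). The MEF2 site was rare in every class (0.708% with H3K27ac and 0.478% alone, 0.501% of windows 2 kb away, 0.280% of all starts). CCAAT, the NFY site, stood in 17.9% and 19.6%, below the 23.7% of windows 2 kb away and the 25.3% of all starts, and TGACGTCA, the CREB site, in 0.531% and 0.366%, against 0.121% and 2.03%. Around H3K27ac summits, in windows of 400 bp on each side, CAGCTG stood in 74.1% of peaks with MYOD and 40.4% of peaks alone. AP-1 sites went the other way outside promoters, with 35.4% of H3K27ac peaks with MYOD and 42.4% of those alone (-6.97 points, -9.36 to -4.53). GC content differed between the MYOD classes, with a median of 56.7% with H3K27ac, 52.7% alone and 46.3% in windows 2 kb away, and its part in the motif shares was not tested.

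The strongest promoter peaks with H3K27ac named muscle genes among others. Here and in the next 4 paragraphs peaks were ranked by −log10 p among those within 100 kb of a protein-coding start, with 1 peak per gene. The highest by −log10 p lay 263 bp before the start of MAMSTR, a coactivator of MEF2 factors, at chr19:48719721-48720281. Its fold was 24.9, the highest of the whole MYOD list, inside an H3K27ac peak of 1698 bp and 4.44-fold. CHRND, the delta subunit of the muscle acetylcholine receptor, had a 14-fold peak 275 bp before its start that overlapped a 4.19-fold H3K27ac peak by 78 bp. DMPK, the myotonic dystrophy protein kinase, had a 16.3-fold peak in intron 1, and TPM2, beta-tropomyosin, a 16.2-fold peak 311 bp before its start with 3 copies of CAGCTG in the window. The other 6 of the 10 strongest were at SLC44A2, a choline transporter-like protein (17.5-fold), MAP3K7CL (18.8-fold), PBXIP1, which binds PBX homeodomain proteins (16.4-fold), LZTS2 (15.2-fold), GSTA4, a glutathione transferase (21-fold), and SLF2 (13.0-fold). The peak at GSTA4 stood apart. It held neither E-box, its H3K27ac summit lay 6 bp away at 10.5-fold, and the 61 bases around its summit occur 3 times in hg38, so reads there cannot be placed with certainty. Among the other 9 the H3K27ac fold ran from 3.63 to 4.87, below the median of 5.22 for H3K27ac with MYOD at promoters. These very strong MYOD peaks thus did not go with high H3K27ac folds. By −log10 p their H3K27ac peaks were divided about the median of 15.4 for H3K27ac with MYOD at promoters. Those at LZTS2 (35.9), MAMSTR (26.1), SLF2 (22.7) and PBXIP1 (21.8) lay above it, and the rest ran from 10.5 to 12.8.

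Away from promoters the strongest overlapping peaks lay in introns and between genes. Within 100 kb of a start, the highest by −log10 p was in intron 5 of RTN2, a reticulon that shapes the endoplasmic reticulum, at chr19:45492737-45493271 and 4173 bp from the start. A pair of overlapping peaks with higher −log10 p lay farther from any start, at chr16:46387785-46388064 (5.59-fold) and chr9:87160352-87160837 (20.8-fold). The chr16 site lay near the centromere, with a low fold for a summit of 668 fragments. Copies of its sequence in hg38 were not counted. In the RTN2 intron MYOD stood at 21.7-fold and H3K27ac at 15.2-fold, with the H3K27ac summit 231 bp away. Intron 2 of CACNA1S, the voltage sensor of excitation-contraction coupling, held a 16.9-fold MYOD peak beside a 5.38-fold H3K27ac peak that it overlapped by 209 bp. Intron 2 of TSPAN9, a tetraspanin, held a 16.6-fold peak, and intron 2 of ARHGEF2, an exchange factor for RhoA, a 15.8-fold peak. Intergenic peaks near PRR18 (19.1-fold), FSCN1, an actin-bundling protein (18.5-fold), PVRIG (18.5-fold) and CEACAM21 (17-fold) and intronic peaks of other genes nearest to TSSK6 (19.1-fold) and CPA1 (17.5-fold) completed the 10. The H3K27ac fold at these 10 ran from 2.51 at TSPAN9 to 15.2 at RTN2.

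The strongest MYOD peaks alone within 100 kb of a start were nearly as high, and 8 of the 10 stood next to H3K27ac. The exceptions were RDH8 and IYD. The peak near RDH8, a retinol dehydrogenase of photoreceptors, reached 23.6-fold at chr19:10027560-10028099, and the nearest H3K27ac peak ended 57984 bp away. The peak near IYD, the iodotyrosine deiodinase of the thyroid, reached 14.8-fold with H3K27ac 443973 bp away. At SFRP5, a secreted Wnt antagonist (17-fold), SDC3, the proteoglycan syndecan-3 (14.7-fold), NAV1 (12.9-fold), SNN (17.1-fold), SARAF (14.7-fold), TMEM120A (15.2-fold), USP29 (13.7-fold) and PALS2 (14.6-fold) an H3K27ac peak of 2.64 to 4.68-fold stood 1 to 126 bp from the MYOD edge. These 8 would count as overlapping under a slightly looser rule.

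Among separate peaks the next strongest after RDH8 and IYD were near genes of several tissues. They were PTDSS1, a phosphatidylserine synthase (14.4-fold), TM4SF4 (16.7-fold), CHRDL2, a chordin-like binder of BMPs (16.0-fold), WIZ (16.6-fold), IL21R, a cytokine receptor (13.8-fold), SORL1, a sorting receptor (13.7-fold), TAS1R2, a sweet taste receptor (14.3-fold), and SPEG, a kinase of striated muscle (12.8-fold). The nearest H3K27ac peak lay between 5542 bp (TM4SF4) and 75128 bp (IL21R) away. The IL21R peak sat in the 5′ UTR, 143 bp from the start, so a strong promoter-proximal MYOD peak could be present without a called H3K27ac peak.

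The strongest H3K27ac peaks without MYOD lay mostly at promoters of broadly used genes. CHTOP, an mRNA export factor, had the highest at 16.8-fold, with the nearest MYOD peak 65311 bp away. ANAPC7, a subunit of the anaphase-promoting complex (16.0-fold), RBBP5, a subunit of histone methyltransferase complexes (16.5-fold), PSMD1, a proteasome subunit (13.5-fold), BUD31, a splicing factor (11.2-fold), ZNF460 (14.7-fold) and ZBTB8OS (12.2-fold) also had theirs within 2 kb of the start. The nearest MYOD peak of the 10 was 1083 bp from the BUD31 peak and the farthest 222600 bp from the ZNF460 peak. The strongest H3K27ac peaks with MYOD carried weak MYOD, as at ZNF335 (H3K27ac 13.0-fold, MYOD 5.06-fold), FARSB (13.2 and 3.59-fold), DUS3L (20 and 4.84-fold) and IPO13 (15.3 and 4.56-fold). RTN2 and USP14 (H3K27ac 16.1-fold, MYOD 16.5-fold) were the exceptions among the 10. The highest −log10 p of both lists fell on the same place, chr16:46387785-46388064 for MYOD and 46387799-46388070 for H3K27ac, at 265 and 223. The folds there were only 5.59 and 5.56, with 668 and 564 fragments at the summits, 233 kb from SHCBP1 and near the centromere.

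Genes were assigned to a peak when theirs was the nearest protein-coding start, within 100 kb of the summit. This is a distance and says nothing of expression. Of 20007 protein-coding genes 1606 (8.03%) were nearest to a MYOD peak with H3K27ac, 2211 (11.1%) to a MYOD peak alone, 3448 (17.2%) to any MYOD peak and 9412 (47.0%) to an H3K27ac peak alone. These shares are the background for every list that follows. Both kinds of MYOD peak were found at 369 genes, only peaks with H3K27ac at 1237 and only peaks alone at 1842. Of those 1842, 1294 (70.2%) were also nearest to an H3K27ac peak, against 49.3% of all genes, so a gene with MYOD alone was usually not a gene without acetylation. The share is partly built in, since an H3K27ac peak ended within 1 kb of each adjacent peak, and 843 genes were nearest to such a peak. Genes with many peaks with H3K27ac included FSCN1, KCNN3, MAP1LC3B2 and TAF8, with 4 each. NOTCH1, the receptor, had 5 peaks alone (3.29 to 8.63-fold), and genes with 4 included EML1, NFKB2, PDGFA and PGS1.

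**Figure D5:**
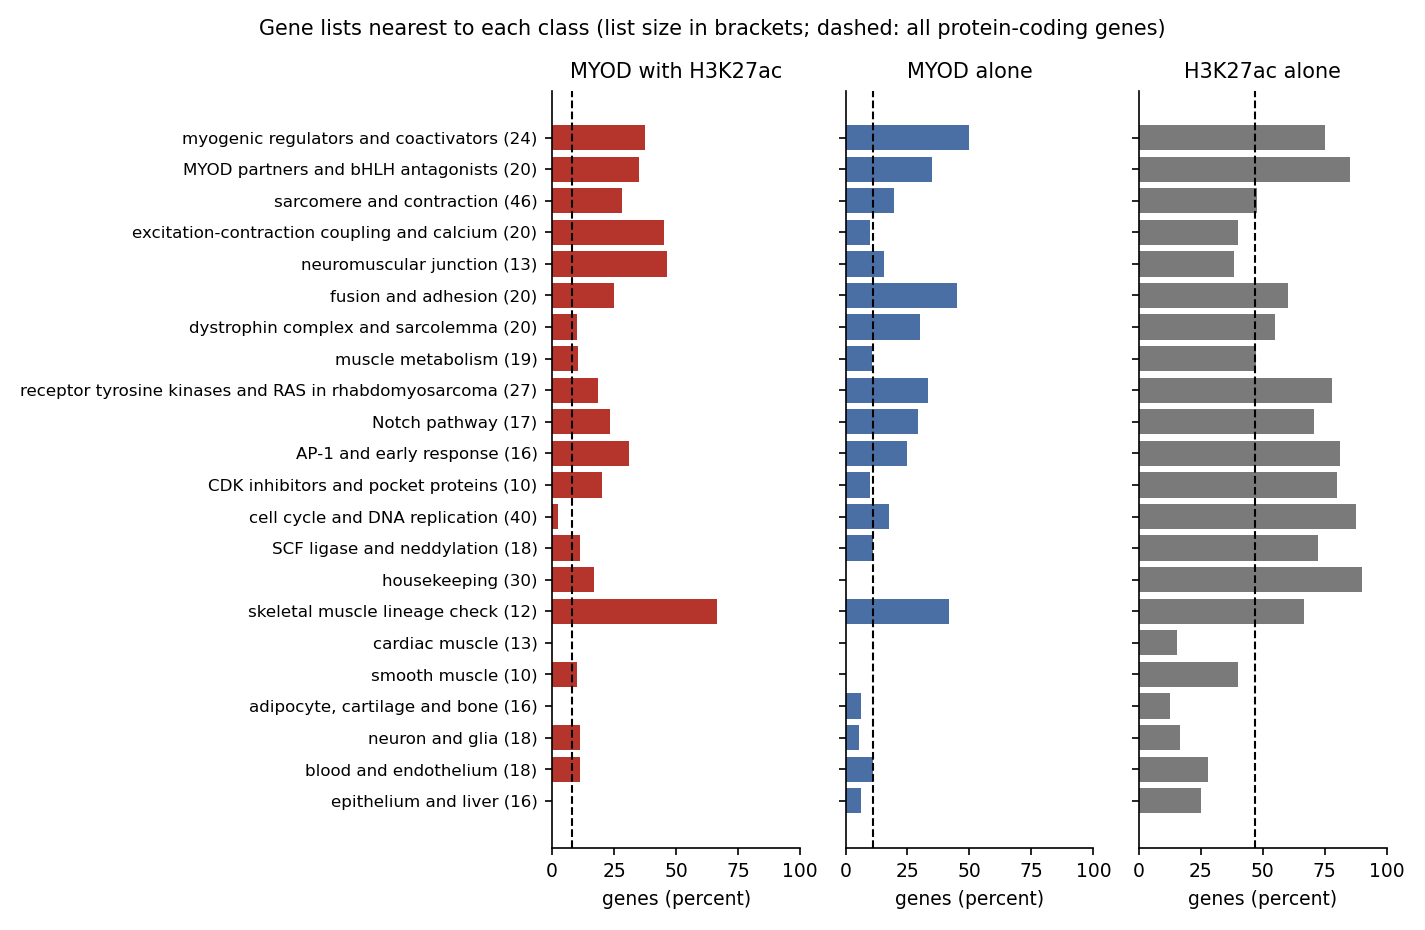
Percent of the genes of 22 lists (horizontal axis, list size in brackets) that were nearest to a MYOD peak with H3K27ac, to a MYOD peak alone, or to an H3K27ac peak alone, within 100 kb. Dashed lines mark the share of all 20007 protein-coding genes (8.03%, 11.1% and 47.0%). All 8 lists from myogenic regulators to muscle metabolism stand above the dashed line for MYOD with H3K27ac, the dystrophin complex and muscle metabolism only slightly (2 genes each). This is not particular to muscle, since AP-1 (31.2%), Notch (23.5%) and housekeeping (16.7%) lists also stand above it. Only the cell cycle, cardiac muscle, adipocyte, cartilage and bone, and epithelium and liver lists do not. For H3K27ac alone the housekeeping and cell cycle lists stand highest, but many others, MYOD partners and myogenic regulators among them, are also above the line.

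The labelled muscle lineage was visible in MYOD, and less specifically in H3K27ac. Of 12 skeletal muscle lineage genes, 11 were nearest to a MYOD peak and 11 to an H3K27ac peak, and MYF5, a sister factor of MYOD, was the exception for both. Over all genes 17.2% were nearest to a MYOD peak and 49.3% to an H3K27ac peak. Shares of other lineages near any MYOD peak lay under that of all genes, except for blood and endothelium (22.2%). For MYOD with H3K27ac, the lists of neurons and glia and of blood and endothelium (11.1% each, 2 genes) and of smooth muscle (1 gene) stood slightly above the 8.03% of all genes. Cardiac muscle markers had 0 of 13 near MYOD and 2 of 13 near H3K27ac (NKX2-5 and MYL7). This list left out genes that heart and skeletal muscle share. TNNT2 and ACTC1 were counted in the skeletal lineage list and MYH7 among the sarcomere genes, and these were nearest to MYOD with H3K27ac. Smooth muscle markers had 1 of 10 near MYOD, which was DES, a gene skeletal muscle also uses. Markers of adipocytes, cartilage and bone had 1 of 16, of neurons and glia 2 of 18, of blood and endothelium 4 of 18 and of epithelium and liver 1 of 16.

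Among 24 myogenic regulators and coactivators, 9 were nearest to a MYOD peak with H3K27ac and 12 to a peak alone, 14 in all. MYOD1 itself had 2 peaks with H3K27ac and 1 alone, the strongest 31523 bp before its start at 12.2-fold. PAX7, a factor of muscle stem cells, had a 12.8-fold peak in its intron 5 beside a 6.37-fold H3K27ac peak, and PAX3 had 2 peaks of each kind. SMYD1, a muscle methyltransferase, had a 9.12-fold peak 380 bp before its start that overlapped H3K27ac. EYA2, a transcriptional coactivator, had an 11.5-fold peak with H3K27ac 100997 bp away. Regulators without a MYOD peak included MYF5, MYF6, MEF2A, MEF2C, SIX4, EYA4, VGLL3 and KLF5.

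Partners and antagonists of MYOD were reached as often, with 12 of 20 near any MYOD peak, 7 of them with H3K27ac and 7 alone. TCF3, which encodes the E proteins that pair with MYOD, had a 16.6-fold peak 15237 bp before its start with 4 copies of CAGCTG in the window and a 4.49-fold H3K27ac peak. HEYL, a repressor downstream of Notch, had a 13.6-fold peak beside 8.15-fold H3K27ac. MSC, a bHLH repressor also called musculin, had a 10.0-fold peak 1472 bp before its start with H3K27ac, and HES6 a 6.19-fold peak 934 bp before its start. ID3, an inhibitor that binds E proteins, had 1 peak with H3K27ac and 2 alone. SNAI1, a zinc finger repressor that binds E-boxes, had a 7.35-fold peak alone 156 bp before its start.

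Genes of the contractile apparatus were found near both classes. Of 46 sarcomere genes 13 were nearest to peaks with H3K27ac and a different 9 to peaks alone. None of the 22 had both kinds, which was also uncommon over all genes (369 of 3448 near MYOD). The 13 were TPM2, KLHL41 (3 peaks), TNNT1 and TNNC2 (2 each), MYH7, MYBPC2, ACTC1, DES, TNNI1, TNNT2, TPM3, LDB3 and CSRP3. TNNT1, slow troponin T, had an 8.54-fold peak 1153 bp inside the gene and TNNC2, fast troponin C, a 7.55-fold peak 1498 bp before its start. The 9 alone included MYBPH, MYBPC1, MYH2, MYL1, ACTN2, MYOM2, MYOM3 and FLNC. Of the 9, 8 were separate, and only MYH2, a fast myosin heavy chain, was adjacent, by a peak 49158 bp before its start that ended 10 bp from H3K27ac. MYBPC1, a slow myosin-binding protein, had a 12.1-fold peak with the nearest H3K27ac 143788 bp away. TTN, which encodes titin, and the fast troponins TNNI2 and TNNT3 had no peak of either antibody.

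Calcium handling and the neuromuscular junction were, after the lineage check itself, the lists most often nearest to MYOD with H3K27ac. Of 20 genes of excitation-contraction coupling, 9 were nearest to a peak with H3K27ac and 2 to a peak alone, against a background of 8.03% and 11.1%. RYR1, the calcium release channel, had a 13.8-fold peak in intron 1 with 6.78-fold H3K27ac. STAC3 and JSRP1, which organize the channel complex, had 13.8 and 14.8-fold peaks 22 and 24 bp before their starts. JPH1 and JPH2, junctophilins that hold the membranes together, ATP2A1 and ATP2A2, the calcium pumps, and MRLN, which inhibits the pump, were also reached.

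Of 13 neuromuscular junction genes, 6 were nearest to a peak with H3K27ac and 2 to a peak alone. The receptor subunits CHRNA1 (9.27-fold, 78 bp before the start), CHRNB1 (16.4-fold, 31 bp before), CHRND and CHRNG (10.0-fold, 105 bp before) and the kinase MUSK (5.69-fold, 74 bp before) all had theirs at the promoter. The 2 alone were RAPSN, the receptor-clustering protein, with a 10.9-fold peak 39 bp before its start and H3K27ac 22510 bp away, and DOK7, with a 5.41-fold peak 1669 bp before its start and H3K27ac 91881 bp away. MYOD was thus at the promoter of 7 of these 8 genes, in both states, and ETV5 was reached from 83628 bp.

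Genes of fusion, adhesion and the dystrophin complex were counted more often near peaks alone than near peaks with H3K27ac, as were all genes (11.1% against 8.03%). Of 20 fusion and adhesion genes 5 were nearest to a peak with H3K27ac and 9 to a peak alone. CDH15, M-cadherin, had a 12.1-fold peak 274 bp before its start with H3K27ac, and CDON, a coreceptor of myoblasts, had 3 peaks with it. The fusion proteins MYMK and MYMX had 2 peaks alone each, the strongest 9.83 and 7.83-fold with H3K27ac 4495 and 17860 bp away. Of 20 dystrophin complex genes 2 (DAG1 and LAMA2) were nearest to a peak with H3K27ac and 6 to a peak alone, among them CAV3, the muscle caveolin (7.36-fold, H3K27ac 28505 bp away). DMD had neither mark. Muscle metabolism was near the background, with 2 of 19 in each class, and CKM, muscle creatine kinase, had no peak of either antibody.

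Signaling genes of the tumor also carried MYOD. Of 27 receptor tyrosine kinase and RAS genes 5 were nearest to a peak with H3K27ac and 9 to a peak alone. FGFR4, a receptor often active in rhabdomyosarcoma, had 3 peaks alone, the strongest 8.0-fold and 60 bp from H3K27ac. ERBB3 had an 11.6-fold peak 701 bp before its start with H3K27ac, MET a 6.89-fold peak with it 62153 bp from its start, and IGF1R a 9.27-fold peak alone in intron 1. Of 17 Notch genes 4 were with H3K27ac and 5 alone, and NOTCH3 had a 9.10-fold peak in intron 1 with 3 copies of CAGCTG and H3K27ac 25350 bp away. Of 16 AP-1 and early response genes 5 were with H3K27ac and 4 alone, among them FOSL2 with an 8.92-fold peak in its 3′ UTR and ATF3 with a 7.43-fold peak.

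Growth genes carried H3K27ac often and MYOD at a share near the background. Of 40 cell cycle and replication genes 35 were nearest to an H3K27ac peak alone, and 32 of the 40 had an H3K27ac summit at a promoter (36.9% of all genes). Any MYOD peak was found at 8 of them (20%, beside 17.2% of all genes), with H3K27ac only at CCND3, cyclin D3 (3.64-fold), and alone at the other 7. MCM4, a helicase subunit, had the strongest of those at 10.8-fold in coding exon 12. Of 10 CDK inhibitors and pocket proteins 2 (CDKN2C and RBL1) were with H3K27ac and 1 (CDKN1A) alone. Of 18 SCF ligase and neddylation genes 2 were in each MYOD class (CAND1 in both, RBX1 and CUL2 in 1 each). Of 30 housekeeping genes 27 were nearest to an H3K27ac peak alone and 5 to a MYOD peak with H3K27ac, of which only that of PGK1, 6 bp before its start, was at the promoter.

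The loci that the study followed differed in state. Gene bodies with 10 kb on each side were inspected. SKP2, the F-box protein that the other arm depletes, had 2 H3K27ac peaks in intron 2 (3.02 and 2.93-fold) and no MYOD peak, the nearest being 77.1 kb away. From earlier ChIP-seq the study reported MYOD and H3K27ac together at a SKP2 intronic enhancer in RD cells. It also reported lower SKP2 after MYOD depletion and contact of that region with the SKP2 promoter in RD cells. In a luciferase assay it found that MYOD activated the enhancer. A missing peak in this 1 library does not show that MYOD is absent there. MYOD1 had a MYOD peak 5058 bp before its start (8.43-fold) that overlapped H3K27ac (3.44-fold), and H3K27ac at its start (4.61-fold). MYOG, the factor of terminal differentiation, had an adjacent MYOD peak 269 bp before its start (6.99-fold), 77 bp from a 3.74-fold H3K27ac peak. MYBPH had a separate peak in intron 3 (10.9-fold) and no H3K27ac at the locus. MYL1 had a separate peak in intron 1 (4.16-fold) and 4 H3K27ac peaks, the nearest 6831 bp from it. CDKN1A, which encodes p21, had a separate peak in its 5′ UTR, 19 bp from the start (7.17-fold, 2 copies of CAGCTG), 1345 bp from a 2.73-fold H3K27ac peak. CDKN1B, which encodes p27, and CDKN1C, which encodes p57, had no MYOD peak and 5 and 1 H3K27ac peaks. The strongest at CDKN1B (13.6-fold) lay 298 bp before the start of another gene, GPR19, and the peak at the CDKN1B start was 2.66-fold. MYH2 had neither mark within this span. SNAI2, a repressor that competes at E-boxes, had an adjacent peak 2181 bp before its start (9.63-fold) that ended 38 bp from H3K27ac. Among the 10 loci only MYOD1 had a MYOD peak that overlapped H3K27ac.

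Long stretches of acetylation held MYOD more often. Joining H3K27ac peaks that lay no more than 12.5 kb apart gave 15332 domains. MYOD overlapped 8.08% of domains made of 1 peak and 67.1% (169 of 252, 61 to 72.6) of those over 20 kb. Longer domains offer more sequence, so the number of MYOD peaks anywhere in a domain was also set against length. Per Mb of H3K27ac peak it was 172 in domains of 1 peak and 366 in those over 20 kb. Per Mb of domain, with the gaps between H3K27ac peaks counted, it was 172 and 38.7, the opposite order. Of MYOD peaks alone, 569 (16.0%) fell inside a stitched domain. The longest domains with MYOD lay nearest to MBL2 (54.3 kb, between genes), CREB3L4 (45.7 kb), HOXC11 in the HOXC cluster (45.1 kb), CSKMT (45.0 kb) and MYOF, a ferlin of myoblast fusion (44.5 kb), with 1 MYOD peak each. The longest without were nearest to RIPOR2 (39.0 kb), C1orf54 (38.7 kb), H2BC3 in the histone cluster (36.7 kb), ITPRIPL2 (36.6 kb) and SPATA12 (34.6 kb). Most MYOD peaks fell in a domain nearest to CWH43 (7 peaks, 29.3 kb), but 61 bases around 2 of its summits occur 13 and 16 times in hg38. TAF8, a TFIID subunit, and CPA5 followed with 5 each (43.6 and 29.8 kb), beside C1QTNF3-AMACR with 5, where 2 summits have 2 and 3 copies, and BAHCC1 with 4.

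The same classes in the shSKP2 arm serve as a reference only, since its lists were longer for both antibodies and 1 library stands for each. There 51.5% of 8457 MYOD peaks overlapped H3K27ac. Of the control MYOD peaks, 72.2% of those with H3K27ac, 63.9% of adjacent and 56.3% of separate peaks were overlapped by a knockdown MYOD peak. A knockdown H3K27ac peak overlapped 94.1%, 46.3% and 26% of them. Adjacent peaks exceeded separate ones by 20.3 points (17 to 23.6) in that last share, and arm and library cannot be told apart. The definition favors this difference, since adjacent peaks lie close to an H3K27ac edge that a wider peak reaches more easily. Knockdown H3K27ac peaks had a median width of 487 bp, against 363 bp in the control.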

How the data were processed

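MYOD and H3K27ac were profiled by ChIP-seq in RD cells, and the 2 shSCR libraries were compared, grouped by sample title. Per the submitters' processing notes and the study's methods, the authors aligned reads to GRCh38 with BWA 0.7.17 (dm3 for the Drosophila spike-in), called peaks per library with MACS3 against an input control, removed exclusion-list regions and used deepTools. The methods state spike-in normalization, but whether it entered the peak calls is not given in the sources used here. The deposited peak lists give a score, a fold (a ratio over local background), and −log10 p-values and −log10 q-values per summit. The methods' p threshold corresponds to a −log10 p of 5, whereas the lists start near 4, with 4.13% of MYOD and 3.60% of H3K27ac peaks under 5.

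Only chromosomes 1 to 22, X and Y were used, and an overlap needed at least 1 bp. Positions used GENCODE 44 on hg38, with promoters within 2 kb and nearest protein-coding starts within 100 kb. Motifs were searched within 100 bp of summits, beside windows 2 kb away. Whole-number pileups were recovered from fold and p for 100.0% of peaks within 0.001 in −log10 p. The lowest background was 1.48 fragments for MYOD and 1.75 for H3K27ac, a proxy for depth that limits the precision. Scripts (Python 3.11.15, numpy 2.4.6, scipy 1.17.1, statsmodels 0.14.6, pysam 0.24.0, samtools 1.23.1, matplotlib 3.10.9) were tested on simulated data. Groups of 1 library allow no test of their difference, so none was run, and 88 alternative values were computed.

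Genes were named by rule: the 10 peaks of highest −log10 p per class within 100 kb of a start (also for separate peaks and for H3K27ac with MYOD, added later), up to 3 members per list by the −log10 p of their MYOD peaks, the genes with most peaks, the longest domains, the domains with most MYOD peaks, and 10 loci. Other list members named in the text were chosen after their values were seen, and some items that these rules select are not reported here. The members, the 22 gene lists (430 genes) and the rules were chosen with earlier results of these data known, and the divisions into adjacent and separate peaks and by summit position were made after the data were seen.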

Additional observations from a re-analysis of the deposited data

Results flagged for a closer look

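Each H3K27ac list held 1 peak outside the chromosomes compared here, on a contig named SV40, a viral sequence in the authors' reference. Its fold was 5.82 in the shSCR list, with 15 fragments at the summit, and 21.7 in the shSKP2 list, with 72. The MYOD lists held no peak there. The difference between the arms was not tested.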

How the results depend on the processing

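Of 88 alternative values, 37 stayed close to the reported one, 47 moved and 4 turned the direction of a difference or ratio whose interval lay to one side of no difference, and the causes were not tested beyond what each rule builds in. Gene counts have no interval and were called close over a wide range. Counts of 1073 and 2278 against 1606 genes with H3K27ac, and of 3148 against 2211 genes alone, were among these. With peaks of −log10 p of at least 10, the overlap shares were 28.0% of MYOD and 8.78% of H3K27ac peaks (8.97% at −log10 q of at least 2), the promoter differences 9.93 and -28.2 points, the median fold difference 0.476, the width ratio 1.18, the median gap of MYOD alone 28.1 kb, genes with H3K27ac 712 and long domains with MYOD 53.7%. With a reciprocal overlap of 50% these were 8.88% and 2.04%, 19 and -0.928 points, -0.236 (sign changed), 0.972 (order changed) and 0.175 kb, with 425 genes and a CAGCTG difference of -12.8 points. With the MYOD summit inside H3K27ac they were 16.3% and 3.71%, 30.8 and 8.19 points (the second changed sign), -1.11 (sign changed), 1.91, 0.378 kb, 782 genes and -16.0 points. With H3K27ac within 500 bp they were 59.2% and 18.5%, 13.0 and -17.8 points, 0.698, 1.19, 22.2 kb and 2.91 points, and within 1 kb 60.6% and 19.9%, 13.6 and -17.1 points, 0.655, 1.15, 23.7 kb and 2.69 points. Outside promoters the fold difference was 0.647 and the CAGCTG difference 4.40 points. The CAGCTG difference, -0.546 points with an interval that held 0, also became positive at −log10 p of at least 10 (0.439) and for motifs within 50 bp of the summit (0.290). The 5000 strongest peaks of each list overlapped in 14.8% and 14.9%. Genes with H3K27ac numbered 654 within 2 kb of a start, and genes alone 1225 within 20 kb and 451 within 2 kb. Stitching up to 5 kb left no domain over 20 kb. No paired analysis was possible because each antibody has 1 library per arm. The lists give no read totals, so the part of depth in these values was not tested.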
